A study of Mus musculus with 8 samples.

Results

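The microRNAs (miRNAs) of the miR-199 and miR-214 families were followed in fibrotic mouse liver. They were chosen by name, as all array entries of these families, which gave 5 of the 567 mouse miRNAs on the array, namely mmu-miR-214, mmu-miR-214*, mmu-miR-199a-5p and both mmu-miR-199b and mmu-miR-199b*. Male C57BL/6J mice, 8 weeks old at the start, were injected intraperitoneally with carbon tetrachloride (CCL4) dissolved in olive oil, and control mice were injected with olive oil alone. Injections were given 2 times a week up to week 4 and weekly from then to week 8, and livers were taken at week 4, 6 or 8. CCL4 livers were labelled as fibrosis and olive oil livers as control. Total RNA of whole liver was read on 8 single-colour arrays, 5 from CCL4 mice (a single array for week 4 and 2 for each of weeks 6 and 8) and 3 from control mice (1 for each week). Neither the labels nor the methods state whether an array carried 1 mouse or a pool, so n counts arrays and p-values measure the spread between arrays, which may be technical.

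A miRNA is cut from a hairpin-shaped precursor, and each arm of the hairpin can give a mature strand of its own, called 5p or 3p. The seed, bases 2 to 8 of the mature strand, does most of the pairing with target mRNAs, so that strands with the same seed are grouped in a family. The miR-199 and miR-214 genes are known for expression in mesenchymal cells, which in the liver include the hepatic stellate cells, the cells that turn into matrix-producing myofibroblasts in chronic injury. A pair of these genes, Mir199a-2 and Mir214, lies in a shared non-coding transcript, Dnm3os.

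The mature sequences are shown with the seed in capitals, because they decide which of the 5 array entries are the same family and which precursor each one reports. RefSeq (GRCm38.p6) held a mature entry for 4 of the 5. For mmu-miR-199b* the sequence came from the study's supplementary list and was found once, in the 5p arm of the RefSeq hairpin Mir199b.
mmu-miR-199a-5p: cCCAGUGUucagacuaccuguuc
mmu-miR-199b*: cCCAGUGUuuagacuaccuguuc
mmu-miR-199b: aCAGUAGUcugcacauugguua
mmu-miR-214: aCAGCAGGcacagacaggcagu
mmu-miR-214*: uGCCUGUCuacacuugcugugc

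A pair of 5p strands shares the seed CCAGUGU. Over their 23 bases mmu-miR-199b* and mmu-miR-199a-5p differ by the single substitution C10U (miR-199a-5p base first, counted from 1 at the 5′ end). The 3p strands miR-199a-3p and miR-199b-3p are identical, so that mmu-miR-199b on the array reads the 3p product of all 3 miR-199 genes. The seeds of mmu-miR-199b and mmu-miR-214 differ by U5C and U8G. Among 1674 distinct mature mouse sequences in RefSeq, the seed of mmu-miR-214 was found in 2, the other being mmu-miR-761.

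The array entries therefore differ in how many genes they can report. Mature mmu-miR-199a-5p lies at chr1:162217844-162217866 (plus strand) in Mir199a-2 and at chr9:21496537-21496559 (minus strand) in Mir199a-1, and mmu-miR-199b* lies only at chr2:32318485-32318507 (plus strand) in Mir199b. Mature mmu-miR-214 is the 3p strand at chr1:162223438-162223459 and mmu-miR-214* the 5p strand at chr1:162223397-162223418, both in Mir214 on the plus strand. The arms were checked by distance, since the annotated probe ends of mmu-miR-199b, mmu-miR-214* and mmu-miR-214 (mm9) lie 38, 5552 and 5593 bases from that of mmu-miR-199a-5p, as do the ends of the mature sequences in RefSeq. Each gene lies inside a dynamin gene, Mir199b within Dnm1, Mir199a-1 within Dnm2, and Mir199a-2 and Mir214 within Dnm3. The hairpins of Mir199a-2 and Mir214 are 5444 bases apart, and both are inside the long non-coding RNA gene Dnm3os (chr1:162217623-162225550). The hairpins below show both mature arms in capitals for Mir199a-2, Mir199b and Mir214. Mir199a-1 gives the same mature strands as Mir199a-2, so the array entries do not set those genes apart.
Mir199a-2, chr1:162217814-162217923, plus strand: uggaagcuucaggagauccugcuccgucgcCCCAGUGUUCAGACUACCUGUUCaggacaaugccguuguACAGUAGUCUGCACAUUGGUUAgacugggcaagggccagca
Mir199b, chr2:32318460-32318569, plus strand: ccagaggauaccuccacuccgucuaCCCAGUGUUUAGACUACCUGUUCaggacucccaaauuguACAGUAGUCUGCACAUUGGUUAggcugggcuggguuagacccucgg
Mir214, chr1:162223368-162223477, plus strand: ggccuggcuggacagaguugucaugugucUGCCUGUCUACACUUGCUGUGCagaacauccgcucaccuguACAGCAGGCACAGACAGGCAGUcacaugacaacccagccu

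Between 117 and 158 mouse miRNAs were called detected per array, and tests covered the 133 detected on at least 3 of the 8 arrays. The arrays shared 1 slide and 1 scan, and no spot was saturated. The deposited signals carried no scaling between arrays. They were divided by the 75th percentile of each array and then set to at least 0.01, where the methods set the floor before dividing. The 4 strands kept their calls with the floor set first. The percentile was higher on the CCL4 arrays (6.53 and above) than on the control arrays (4.71 to 6.48), and this moves every scaled difference by the same amount. The unscaled signal is therefore shown first.

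Both 5p strands of the miR-199 family had a higher signal on every CCL4 array than on any control array. The unscaled signal of mmu-miR-199b*, the strand of Mir199b alone, was 76.9 at 4 weeks, 35.8 and 55.6 at 6 weeks, and 93.8 and 70.9 at 8 weeks on the CCL4 arrays, against 14.99, 10.2 and 20.9 on the control arrays of 4, 6 and 8 weeks. Its lowest CCL4 array was the first of 6 weeks, and it was still above the highest control array. For mmu-miR-199a-5p, the strand of the Mir199a genes, the CCL4 arrays gave 46.3, 22.7, 35.6, 60.9 and 46.6 in the same order, and the control arrays 17.1, 13.8 and 22.6. Here the groups only just separated, with the first CCL4 array of 6 weeks at 22.7 and the control array of 8 weeks at 22.6.

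The 3p strands were higher at each week too, and the groups overlapped for mmu-miR-199b alone. For mmu-miR-199b, the shared 3p strand, the CCL4 arrays gave 249.8, 107, 187, 313 and 244, and the control arrays 76.9, 57.7 and 112. The first CCL4 array of 6 weeks lay below the control array of 8 weeks. For mmu-miR-214 the CCL4 arrays gave 30.1, 12.6, 22.8, 32.1 and 19.9, and the control arrays 5.19, 5.61 and 11.9, of which those of 4 and 6 weeks were not called detected. The groups did not overlap. The passenger strand mmu-miR-214* was detected on 0 of 8 arrays, and its signal after background subtraction was below 0 on each of them (-4.50 to -1.32), so that no difference can be given for it. In all, 3 of the 4 detected entries had every CCL4 array above every control array in unscaled signal, where 14.3% of the 133 tested miRNAs did. One of the 3, mmu-miR-214, was detected on 5 of 5 CCL4 arrays and 1 of 3 control arrays. It passed the filter only through its CCL4 arrays, so it adds nothing to this count.

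**Figure D1:**
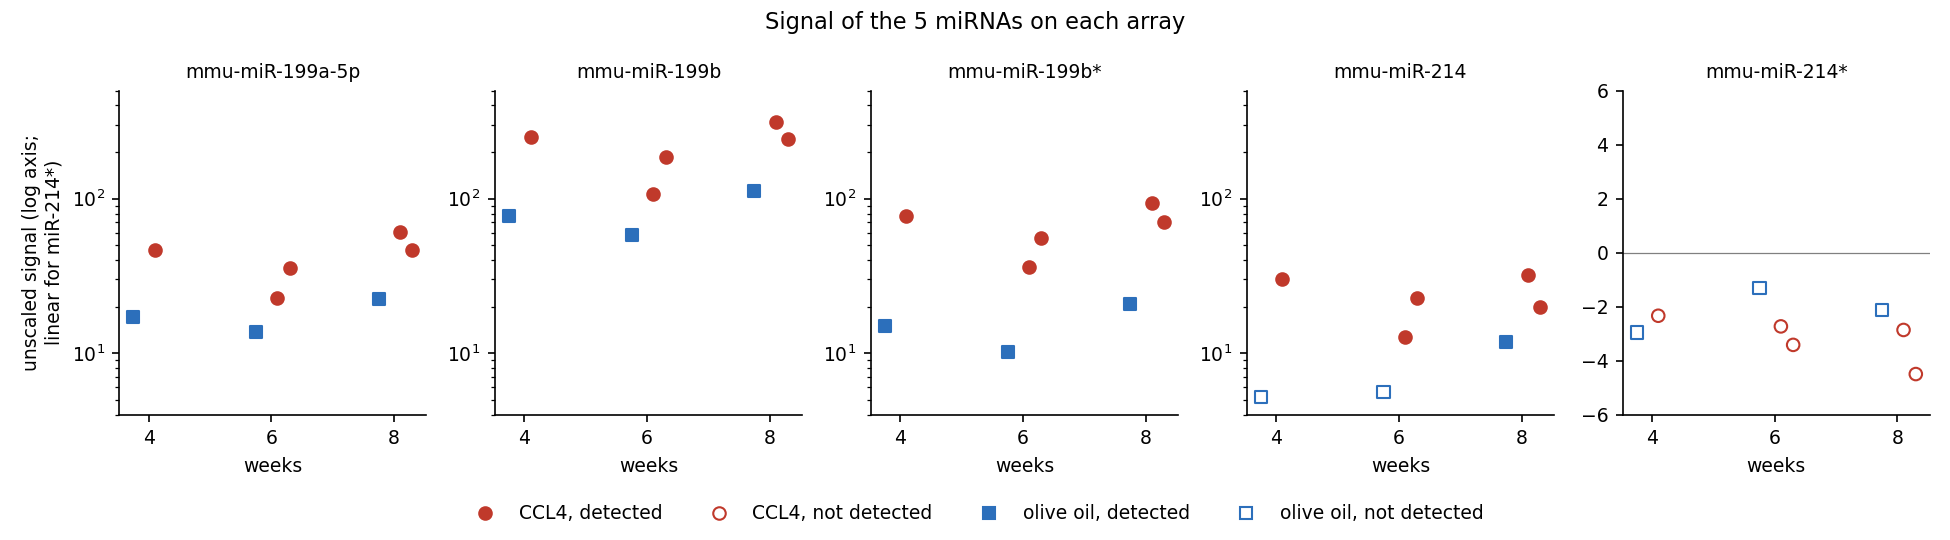
Unscaled signal of the 5 miRNAs on each array (vertical axis, logarithmic for 4 panels and linear for mmu-miR-214*) by week (horizontal axis). Red circles are CCL4 arrays, blue squares are olive oil arrays, and open symbols were not called detected. CCL4 arrays of mmu-miR-199b* lie between 35.8 and 93.8 and control arrays between 10.2 and 20.9, and mmu-miR-214* stays below 0 on all arrays.

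After scaling, all 4 tested miRNAs were higher in CCL4 liver over all weeks. mmu-miR-214* was not tested, and mmu-miR-214 reached the filter of 3 arrays through its CCL4 arrays. Their scaled level differed by 1.46 on the log2 scale for mmu-miR-199b* (2.75-fold, 95% interval 1.12 to 1.80, limma with week as a factor, adjusted p = 2.153e-04). The log2 difference was 1.00 for mmu-miR-214 (standard error 0.23, limma, adjusted p = 0.0118, with 2 of 3 control arrays below detection), 0.74 for mmu-miR-199b (interval 0.37 to 1.11, limma, adjusted p = 0.0118) and 0.55 for mmu-miR-199a-5p (interval 0.21 to 0.90, limma, adjusted p = 0.0209). Among all 133 tested miRNAs 13.5% were called higher and 35.3% lower, and the median difference was -0.32. With undetected signals raised to the lowest detected signal of the array, the difference of mmu-miR-214 was 0.82 (adjusted p = 0.00798). In each of the 4, all CCL4 arrays were above the control array of their own week (5 of 5 arrays), which held for 14.3% of all tested miRNAs. Every CCL4 array was above every control array, after scaling, for mmu-miR-199b* and mmu-miR-214 (9.02% of all tested). Given how mmu-miR-214 passed the filter, it adds nothing to this count. In RNA of whole liver, more cells of a type and more of the miRNA per cell cannot be told apart.

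**Figure D2:**
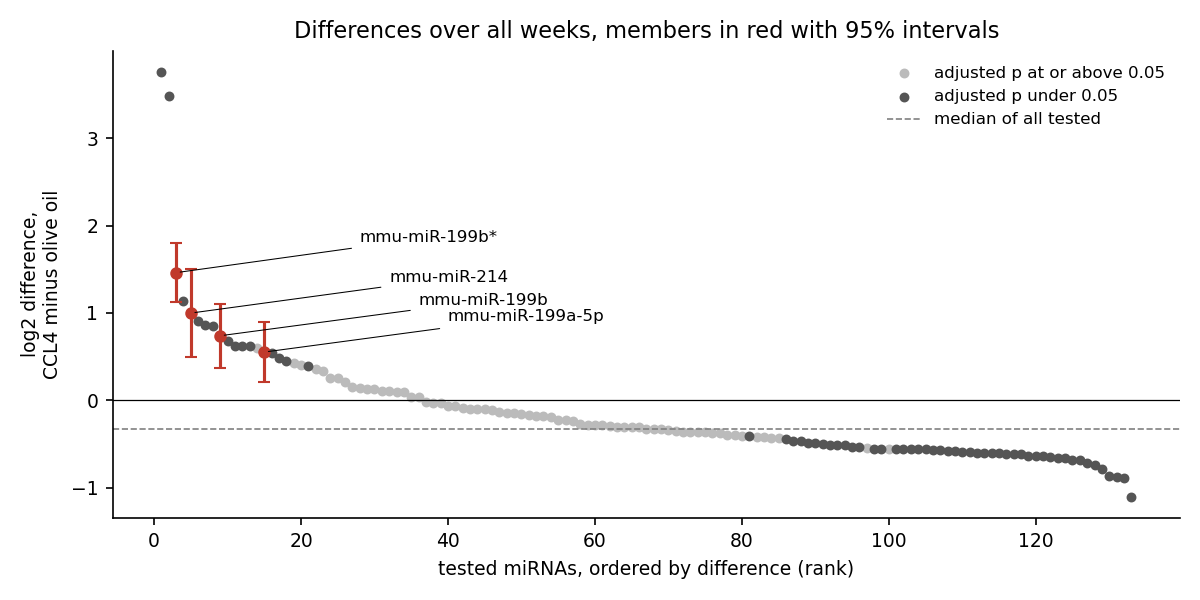
Log2 difference in scaled level between CCL4 and olive oil arrays over all weeks (vertical axis) for the 133 tested miRNAs ordered by that difference (horizontal axis). Red points with 95% intervals are the 4 tested miR-199 and miR-214 entries, dark points passed the adjusted threshold, pale points did not, and the dashed line is the median of -0.32. The 4 rank 3, 5, 9 and 15 from the top.

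The calls did not rest on the arrays equally. The differences of mmu-miR-199b* (1.39 to 1.52) and mmu-miR-214 (0.76 to 1.29) passed the test with any 1 array left out. The filter stayed that of all 8 arrays. Since mmu-miR-214 entered through its CCL4 arrays and was detected on 1 of 3 control arrays, its passing is not read as support. That of mmu-miR-199a-5p did not pass without the CCL4 array or the control array of 4 weeks (0.56, limma, adjusted p = 0.0628 for each), the control array of 6 weeks (0.60, adjusted p = 0.0854) or the control array of 8 weeks (0.50, adjusted p = 0.0533). For mmu-miR-199b the call was lost without the control array of 6 weeks (0.75, limma, adjusted p = 0.0542).

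The size of each difference depended on the scaling, and its direction did not in the scalings tried. Without scaling the log2 differences were 2.13 for mmu-miR-199b*, 1.67 for mmu-miR-214, 1.41 for mmu-miR-199b and 1.22 for mmu-miR-199a-5p, while the median of all tested miRNAs moved from -0.32 to 0.35. Relative to that median, the difference was taken over 9 choices of scaling, floor and signal sum. It was 1.56 to 1.79 for mmu-miR-199b*, 1.02 to 1.32 for mmu-miR-214, 0.91 to 1.07 for mmu-miR-199b and 0.61 to 0.88 for mmu-miR-199a-5p. Dividing each array by a constant cannot change a difference relative to the median, so most of the 9 had to give the same value. The lowest values came from quantile normalization. A different background correction, normexp with 50 added to each signal, was not among the 9 and gave smaller differences. It also averaged the log signal over all spots of a miRNA in place of adding up its probes. Dim and bright probes thus counted alike, and the parts of these changes were not tested apart. The normexp differences were 0.52 for mmu-miR-199b*, 0.74 for mmu-miR-199b, 0.21 for mmu-miR-199a-5p and 0.17 for mmu-miR-214. The last 2 did not pass (limma, adjusted p = 0.0526 and 0.156). Relative to the median of all tested, the normexp differences were 0.47, 0.69, 0.16 and 0.12 in the same order.

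**Figure D3:**
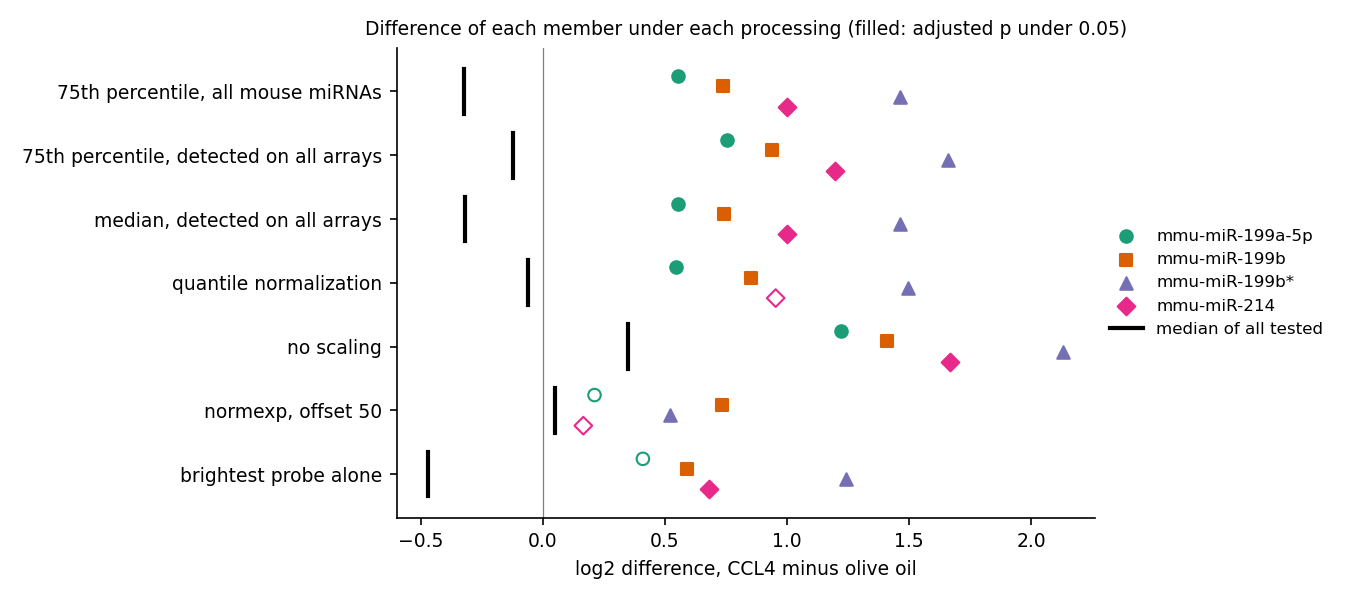
Log2 difference between CCL4 and olive oil arrays (horizontal axis) of the 4 tested entries under 7 ways of processing the signals (vertical axis). Filled symbols had an adjusted p under 0.05 in limma, open symbols did not, and black bars mark the median of all tested miRNAs, which runs from -0.47 to 0.35. All 4 lie above 0 and above the median of all tested in every row.

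At single weeks mmu-miR-199b*, the Mir199b strand, was the only one of the 4 past the threshold at every week. Its log2 differences, from weeks 4 to 8, were 1.46, 1.55 and 1.37 (limma with a mean per group, adjusted p = 1.985e-04, 4.996e-06 and 1.011e-04). Each control group, and CCL4 at 4 weeks, was a single array. The spread came from the CCL4 pairs of 6 and 8 weeks (2 residual degrees of freedom) and was pooled to 1 value for all miRNAs, giving every strand the same standard error of 0.33 at 4 weeks and 0.28 at 6 and 8 weeks, so the weekly p-values rest on that assumed common spread. With no filter on detection none of the weekly calls held. For mmu-miR-199b the differences were 0.81, 0.72 and 0.71 (limma, adjusted p = 0.0362, 0.0847 and 0.120) and for mmu-miR-199a-5p 0.54, 0.47 and 0.65 (limma, adjusted p = 0.151, 0.190 and 0.171). The values of 6 weeks depended on 1 array, being 1.01 for mmu-miR-199b and 0.69 for mmu-miR-199a-5p without the first CCL4 array. Without the second they were 0.42 and 0.25. Called higher were 3 of the 4 at 4 weeks, 2 at 6 weeks and 1 at 8 weeks, where 12.0% (16 of 133), 6.02% and 6.02% of all tested miRNAs were called higher. Of the strands called, mmu-miR-214 at 4 and 6 weeks had entered the test through its CCL4 arrays. Without either CCL4 array of 8 weeks the 4-week call of mmu-miR-199b was lost while its difference stayed at 0.81. The spread then came from the CCL4 pair of 6 weeks alone.

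For mmu-miR-214 the weekly differences were less even. Its log2 difference from weeks 4 to 8 was 1.64, 1.02 and 0.50 (limma, adjusted p = 4.497e-05, 0.00862 and 0.469). The control arrays of 4 and 6 weeks were below detection. Taken against the lowest signal of any miRNA called detected on the control array, the differences were 2.27-fold at 4 weeks and 1.82-fold at 6 weeks. These are rough lower bounds, since that signal is not a measured limit for mmu-miR-214 and the spread between arrays is not included. On the scaled log2 scale the CCL4 arrays held 1.67 at 4 weeks, 0.95 and 1.59 at 6 weeks and 1.54 and 1.20 at 8 weeks, and the control arrays 0.02, 0.25 and 0.87. A change of the difference with week did not pass the interaction test (limma, adjusted p = 0.223, unadjusted p = 0.0304), nor did it for the other 3 (adjusted p = 0.984 for each), where 6.02% of all tested miRNAs passed. Without either CCL4 array of 6 weeks the interaction of mmu-miR-214 passed, with the spread taken from the CCL4 pair of 8 weeks alone. Without either CCL4 array of 8 weeks its call at 6 weeks was lost, with the spread taken from the pair of 6 weeks alone. Such changes of call can come from the spread and are not read as results.

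Ratios of 2 strands on the same array do not depend on how arrays are scaled. The height of a ratio also reflects how strongly each probe binds, so only its change between groups is read. The 6 possible ratios were compared by an exact two-sided permutation test over the 56 ways to choose 5 of 8 arrays, which cannot give a p below 0.0357, and p was adjusted over the 6.

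The pair with a shared seed changed unequally. The log2 ratio of mmu-miR-199b* over mmu-miR-199a-5p was 0.73 at 4 weeks, 0.66 and 0.64 at 6 weeks and 0.62 and 0.61 at 8 weeks in CCL4 liver, and -0.19, -0.43 and -0.11 in control liver at 4, 6 and 8 weeks. The CCL4 arrays lay within 0.13 of each other and well apart from the control arrays, with a standard error from replicate spots of 0.03 to 0.14 per array. The mean was 0.65 ± 0.05 (SD, n = 5) against -0.24 ± 0.17 (SD, n = 3), a 1.86-fold higher ratio (exact permutation p = 0.0357, adjusted p = 0.107). In a limma fit across all 132 ratios to mmu-miR-199a-5p, with week as a factor, the difference was 0.91 with a standard error of 0.10 (adjusted p = 2.098e-04). The share of these ratios that passed was not counted. A ratio to mmu-miR-199a-5p that was higher on every CCL4 array than on any control array was found for 2.27% of the 132 miRNAs. Since mmu-miR-199a-5p itself ranked 15 from the top, few miRNAs could have such a ratio, and the small share does not measure how rare the change is. With normexp background correction this difference was 0.31, in the same direction.

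The shared 3p strand rose less than mmu-miR-199b*, and its change was not told apart from that of mmu-miR-199a-5p. The log2 ratio of mmu-miR-199b over mmu-miR-199b* ranged from 1.58 to 1.78 in CCL4 liver and from 2.36 to 2.50 in control liver, a difference of -0.71 (exact permutation p = 0.0357, adjusted p = 0.107, n = 5 and 3). The limma fit gave -0.72 (adjusted p = 5.791e-04), and 93.2% of all miRNAs had a lower ratio to mmu-miR-199b* on every CCL4 array, so this is shared by most of the array. Normexp correction turned the difference to 0.22. The log2 ratio of mmu-miR-199b over mmu-miR-199a-5p ranged from 2.24 to 2.43 in CCL4 liver and from 2.07 to 2.31 in control liver, and the groups overlapped (difference 0.18, exact permutation p = 0.0714, adjusted p = 0.107). Both of these strands are cut from the precursors of Mir199a-2 and Mir199a-1, and the 3p strand also from that of Mir199b.

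Ratios with mmu-miR-214 were less even between weeks. Of the genes of mmu-miR-199a-5p, Mir199a-2 lies in the same transcript as Mir214 and Mir199a-1 does not. The log2 ratio of mmu-miR-214 over mmu-miR-199a-5p was -0.62 at 4 weeks, -0.84 and -0.64 at 6 weeks and -0.92 and -1.23 at 8 weeks on the CCL4 arrays. On the control arrays it was -1.72, -1.30 and -0.93. The groups overlapped (difference 0.46, exact permutation p = 0.0714, adjusted p = 0.107), and within weeks the difference was 0.55 at 6 weeks and -0.15 at 8 weeks. The values of 4 and 6 weeks rest on control arrays where mmu-miR-214 was below detection. Without the control array of 4 weeks the difference was 0.26. The ratio of mmu-miR-214 over mmu-miR-199b differed by 0.28 (exact permutation p = 0.286, adjusted p = 0.286) and over mmu-miR-199b* by -0.43 (exact permutation p = 0.143, adjusted p = 0.171), and without that control array by 0.08 and -0.66. In the limma fit the last had an adjusted p of 0.0453 and, with the replicate number as a block, 0.124. Before adjustment the first of these was 0.0442, a gap so small that nearly all ratios to mmu-miR-199b* passed. That call is therefore not particular to mmu-miR-214.

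**Figure D4:**
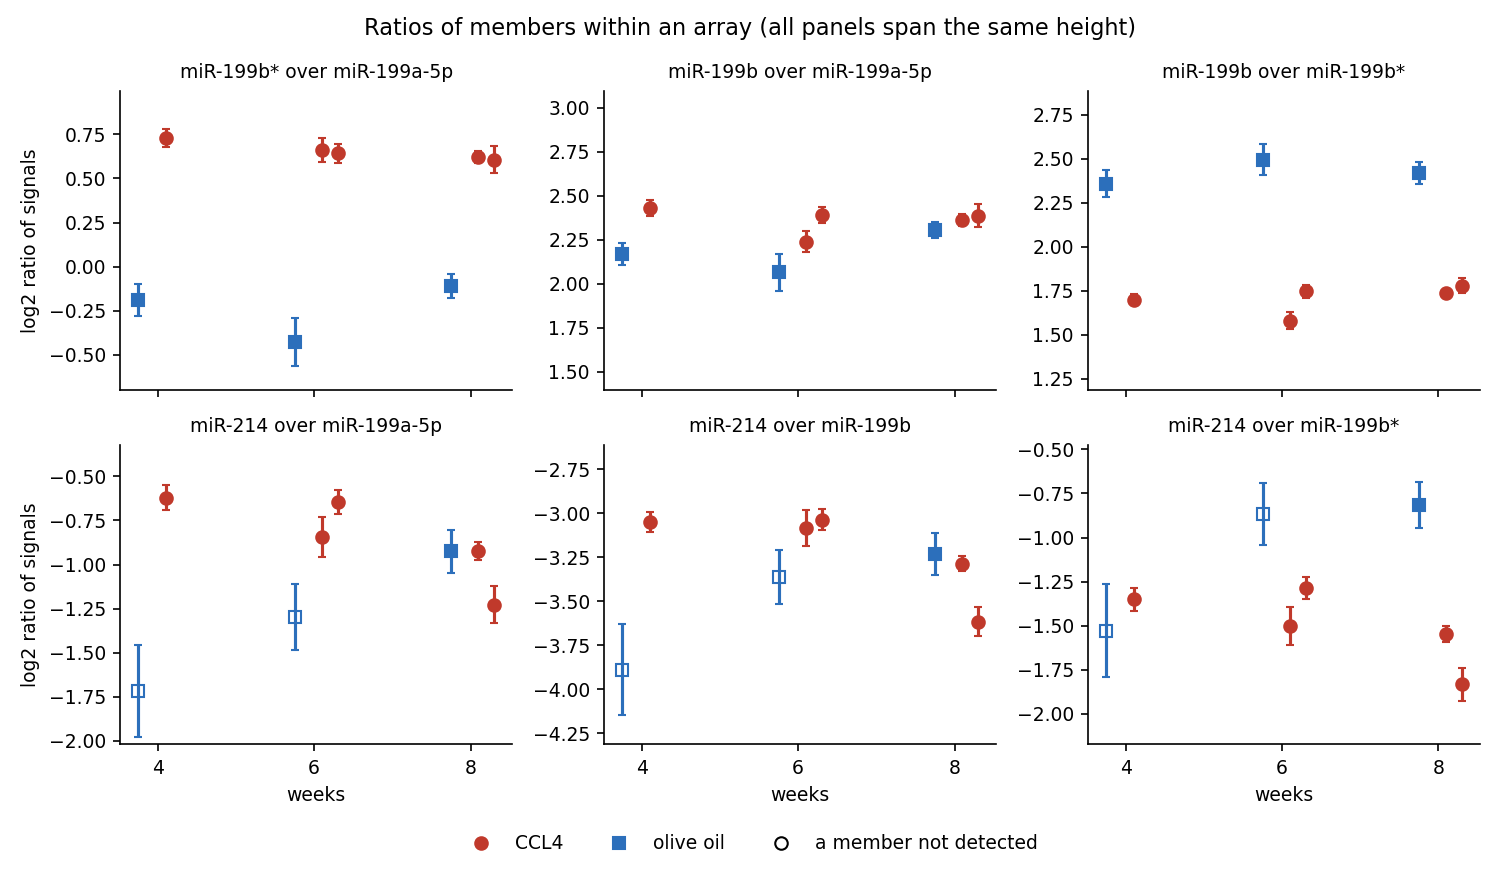
Log2 ratio of the signals of 2 strands on the same array (vertical axis, the same height in all 6 panels) by week (horizontal axis). Red circles are CCL4 arrays, blue squares are olive oil arrays, open symbols are arrays where mmu-miR-214 was not detected, and bars are the standard error from replicate spots. The ratio of mmu-miR-199b* over mmu-miR-199a-5p is 0.61 to 0.73 on CCL4 arrays and -0.43 to -0.11 on control arrays.

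Each strand was read by more than 1 probe, and the signal is their sum. By their annotated intervals the probes pair with the 3′ part of the miRNA, and all probes of the 5p pair span base 10, where the sequences differ by C10U. How far mmu-miR-199b* RNA binds the probes of mmu-miR-199a-5p, or the reverse, was not measured on these arrays. The 22-base probe of mmu-miR-199b* was well above background on 50 of 50 CCL4 spots and 15 of 30 control spots, and its 21-base probe on 37 of 50 and 0 of 30. The log2 difference of the 22-base probe was 1.36, with every CCL4 array above every control array. No size is given for the 21-base probe, since no control spot of it was well above background. The levels of mmu-miR-199b* in control liver thus rest on spots of which many were near background.

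For mmu-miR-199a-5p the 19-base probe gave 91.5% of the signal on the CCL4 arrays and 91.9% on the control arrays, and it was well above background on all spots. Its log2 difference was 0.54. The 18-base probe was above background on 1 of 50 CCL4 spots and 1 of 30 control spots, and no difference is read from it. Both probes of mmu-miR-199b (19 and 20 bases) were above background on all spots, with differences of 0.77 and 0.71. The probes of mmu-miR-214 pair with only 12 and 13 bases. The 12-base probe was above background on 1 of 50 CCL4 spots and 1 of 30 control spots, so that no difference is read from it. The 13-base probe was above background on 43 of 50 and 4 of 30 spots and was brighter by 0.82 in CCL4 liver, against control spots of which most were near background. For mmu-miR-214*, 1 spot of 1 probe was above background on the CCL4 arrays.

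The levels of the 4 strands moved together across the arrays. Pearson's r of the scaled log2 level over the 8 arrays was 0.84 (mmu-miR-199a-5p with mmu-miR-214) to 0.99 (mmu-miR-199a-5p with mmu-miR-199b), where the median over all pairs of miRNAs detected on all arrays was 0.41 and the upper quartile 0.84. The points share the treatment groups and each array's scale. The miRNAs whose scaled level was most like that of these strands, by Pearson's r with the mean of the 4 standardized strand levels over the 8 arrays, were mmu-miR-200b (r = 0.97), mmu-let-7e (0.96), mmu-miR-125a-5p (0.91), mmu-miR-497 (0.89) and mmu-miR-31 (0.89). Of these, mmu-miR-200b belongs to a family known for its expression in epithelium, and its scaled log2 level lay between 0.97 and 1.43 in CCL4 liver and between 0.70 and 0.88 in control liver. Without scaling, mmu-miR-200b and mmu-let-7e again had the highest r (0.99 for each). The median r over all pairs was then 0.79 and the upper quartile 0.91, so a high r without scaling says little.

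Other miRNAs often linked to stroma went in both directions after scaling. Of 10 such miRNAs 8 were tested, and 2 were called higher, 1 lower and 5 did not pass (13.5% of all tested called higher, 35.3% lower). Those called higher were mmu-miR-31, at 0.86 (limma, adjusted p = 0.00516), and mmu-miR-379, which was detected on 3 CCL4 arrays and 0 control arrays. The latter entered the test only through its CCL4 arrays and had to differ, so it adds nothing to the count. The one called lower was mmu-miR-22, at -0.68 (limma, adjusted p = 0.0135). For mmu-miR-21, known as a profibrotic miRNA, the difference was -0.08 (limma, adjusted p = 0.635). The values of mmu-miR-22 and mmu-miR-21 depend on the scaling. Without it the median of all tested miRNAs moved from -0.32 to 0.35 and 0 were called lower. The contractile cell miRNAs gave little to read, since mmu-miR-145 and mmu-miR-145* were detected on 0 arrays and mmu-miR-143 differed by 0.34 (limma, adjusted p = 0.122). The summed scaled level of the contractile list ran from 3.30 to 6.97 in CCL4 liver and from 3.67 to 4.17 in control liver. A stellate cell origin of the miR-199 and miR-214 signal is therefore background knowledge here and was not checked by other markers.

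Markers of other liver cells moved in part with the treatment. Of 4 hepatocyte miRNAs, 3 were called lower (mmu-miR-122 at -0.78, mmu-miR-192 at -0.66 and mmu-miR-194 at -0.60) and mmu-miR-802 was called higher at 0.68 (limma, adjusted p = 0.0118, 0.0219, 0.0232 and 0.0232), where 35.3% of all tested miRNAs were called lower. The lower calls depended on the scaling, since without scaling, and with normexp correction, 0 of the 133 were called lower. The summed scaled level of this list ran from 2331 to 4125 in CCL4 liver and from 5263 to 5884 in control liver, with none of its miRNAs undetected. None of the 3 tested leukocyte, 2 endothelial or 3 erythroid miRNAs passed in limma, and of 2 tested epithelial miRNAs mmu-miR-200b was called higher (0.45, adjusted p = 0.0291). In summed scaled level the leukocyte list spanned 44.3 to 139 in CCL4 liver and 58.5 to 95.6 in control liver, and mmu-miR-150, known from lymphocytes, was detected on 0 arrays. The endothelial list spanned 136 to 205 and 213 to 225, the erythroid list 378 to 961 and 537 to 1225, and the epithelial list 4.75 to 7.34 and 4.64 to 4.91, with mmu-miR-200c, mmu-miR-141 and mmu-miR-429 detected on 0 arrays. The part of these cell types in the differences of the miR-199 and miR-214 strands was not tested.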

How the data were processed

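Liver RNA was labelled and hybridized to 8 single-colour arrays. Per the file headers, the deposited intensity values come from Feature Extraction 10.5.1.1 with mm9 annotation, with background subtracted and probes of a miRNA added up by the authors' software. The deposited log2 table holds the same values, unscaled, with signals under 1 raised to 1 (largest gap 1.107e-06 over 4536 values).

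Each signal was scaled to the 75th percentile of its array over 567 mouse miRNAs, then floored at 0.01 (the methods state the floor first) and logged to base 2. Tests (limma 3.58.1, R 4.3.3) covered miRNAs detected on at least 3 arrays, with week as a factor (4 residual degrees of freedom) or with group means for single weeks. Benjamini-Hochberg adjustment was used throughout, with 0.05 as threshold. Ratios within an array were compared by exact permutation (scipy 1.17.1). On simulated data, with 30 of 133 miRNAs shifted by 1 on the log2 scale in 50 draws, the fit for all weeks found 97.4% of them with 3.39% false calls. The simulated noise was independent between miRNAs, whereas on these arrays the median r over pairs was 0.41. The shift also exceeds the differences of mmu-miR-199b (0.74) and mmu-miR-199a-5p (0.55). These rates therefore check the code and are not error rates of the calls here.

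The miRNAs named are the 5 of the miR-199 and miR-214 families, the 5 most like them among those detected on all arrays, and marker list members. Families, lists and rules were chosen with earlier results of these data known. Alternatives covered scaling, floor, background correction, probes, filter, model and each array left out. Slide and scan were no block, since there was 1 of each. The number of arrays limits the precision.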

Additional observations from a re-analysis of the deposited data

Results flagged for a closer look

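The scaled log2 level of mmu-miR-199b over the 5 CCL4 arrays had 1 array apart from the others. The first CCL4 array of 6 weeks held 4.04 and the other 4 held 4.63 to 4.83, so that its gap to the nearest was 0.748 of the whole range. Chance sets about 1 in 20 such groups apart. On the same array mmu-miR-199b* (2.46), mmu-miR-199a-5p (1.80) and mmu-miR-214 (0.95) were also lowest among the CCL4 arrays. That array was the dimmest of the CCL4 arrays, with the lowest 75th percentile (6.53) and the fewest miRNAs detected (121). The log2 ratio of mmu-miR-199b* over mmu-miR-199a-5p, at 0.66, lay inside the range of the other 4.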

How the results depend on the processing

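For the comparison over all weeks, the log2 difference of each of the 4 tested strands stayed above 0 under every alternative. Calls changed as follows, where the cause was not tested unless named. With quantile normalization mmu-miR-214 did not pass (0.95, adjusted p = 0.0589). With normexp correction mmu-miR-199a-5p (0.21) and mmu-miR-214 (0.17) did not pass. That alternative adds 50 to signals that were mostly below 50, which draws log values together. It also averages log signals over all spots in place of adding up probes, and these parts were not tested apart. With the brightest probe alone mmu-miR-199a-5p did not (0.41), and with the dimmest probe alone, most spots of which were near background, none of the 4 did (mmu-miR-214 2.66, mmu-miR-199b 0.65, mmu-miR-199a-5p 0.53, mmu-miR-199b* 1.69). With no filter on detection, which adds miRNAs at background to the test, the differences of mmu-miR-214 (1.00), mmu-miR-199b (0.74) and mmu-miR-199a-5p (0.55) did not pass. Without a week term mmu-miR-199a-5p did not (0.54, limma, adjusted p = 0.0511). In the methods' t-test all 4 had an unadjusted p under 0.05. After Benjamini-Hochberg adjustment mmu-miR-199b (0.73) and mmu-miR-214 (1.01) did not pass, and after Bonferroni adjustment none of the 4 did (mmu-miR-214 1.01, mmu-miR-199b 0.73, mmu-miR-199a-5p 0.54, mmu-miR-199b* 1.44). Of the 4, therefore, 2 were called with normexp, 0 with the dimmest probe, 1 with no filter, 2 with Benjamini-Hochberg and 0 with Bonferroni.

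Over all tested miRNAs, 18 were called higher and 47 lower (27.7% of calls higher). Lower calls were 10 with the percentile over miRNAs detected on all arrays (67.7% higher) and 17 with quantile normalization (43.3% higher). Without scaling 34 were higher and 0 lower, with normexp 10 and 0, with the brightest probe 11 and 73, with the dimmest 1 and 0, with no filter 5 and 0, without a week term 11 and 16, in the t-test with Benjamini-Hochberg 10 and 23, and with Bonferroni 0 and 1.

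At single weeks 3, 2 and 1 of the 4 were called higher at 4, 6 and 8 weeks. This became 4 at 6 weeks with the percentile or median over miRNAs detected on all arrays, 2 at 8 weeks with that median or with the filter of detection on all arrays, 3 at 8 weeks without scaling, 1 at 4 weeks and 1 at 6 weeks with quantile normalization, 1 at 6 weeks with the brightest probe, and 0 at each week with normexp, the dimmest probe or no filter. With the dimmest probe mmu-miR-199a-5p at 4 weeks was -0.17. The interaction was passed by 0 of the 4 under the alternatives of scaling, signal and filter.

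Among the ratios, normexp turned the difference of mmu-miR-199b over mmu-miR-199b* to 0.22, of mmu-miR-214 over mmu-miR-199a-5p to -0.0412 and of mmu-miR-214 over mmu-miR-199b to -0.57, and the dimmest probe turned mmu-miR-214 over mmu-miR-199b* to 1.16. In the limma fit 3 ratios passed that did not in the exact test. They were mmu-miR-199b* over mmu-miR-199a-5p (0.91), mmu-miR-199b over the star strand mmu-miR-199b* (-0.72) and mmu-miR-214 over mmu-miR-199b* (-0.46). A ratio to mmu-miR-199b* was lower on every CCL4 array for 93.2% of all miRNAs, so the last 2 calls are not particular to these strands. The share of the 132 ratios to mmu-miR-199a-5p that passed in limma was not counted. Most of them had low adjusted p-values, as described with that ratio above, so the first call is not read as particular either.

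Replicate numbers did not pair the CCL4 arrays of 6 and 8 weeks (correlation of deviations 0.05). With the replicate number as a block 12 miRNAs were higher and 54 lower. The 4 strands kept their calls (mmu-miR-214 1.00, mmu-miR-199b 0.65, mmu-miR-199a-5p 0.49, mmu-miR-199b* 1.40). In limma 2 ratios passed again, those of mmu-miR-199b over its star strand mmu-miR-199b* (-0.75) and of mmu-miR-199b* over mmu-miR-199a-5p (0.92). The limit given above for ratios to mmu-miR-199b* holds for the former, and that for ratios to mmu-miR-199a-5p for the latter.

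With 1 array left out, differences over all weeks ran from 0.50 to 0.63 for mmu-miR-199a-5p, 0.76 to 1.29 for mmu-miR-214, 0.65 to 0.83 for mmu-miR-199b and 1.39 to 1.52 for mmu-miR-199b*. Of the 4, 2 to 4 were called, the 2 without the control array of 6 weeks. Weekly calls and the interaction call of mmu-miR-214 also changed. Without a CCL4 array of 6 or 8 weeks their spread came from a single CCL4 pair, so no counts are given. Over all tested miRNAs 8 to 14 were higher and 5 to 60 lower, with 5 lower without the control array of 6 weeks, 7 without either array of 4 weeks and 30 on leaving out CCL4 replicate 1 of 6 weeks. Higher calls were 8 without the control array of 6 weeks and 11 without that of 8 weeks. The differences of the ratios kept their direction, and those with mmu-miR-214 ran from 0.26 to 0.66 over mmu-miR-199a-5p, 0.08 to 0.41 over mmu-miR-199b and -0.66 to -0.31 over mmu-miR-199b*, in each case lowest without the control array of 4 weeks.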
